A study of Drosophila melanogaster with 17 samples.

Results

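The genes described here encode nucleolar proteins that build ribosomes. The list holds 8 Drosophila genes, Fib, Nop56, nop5, Nop60B, Nopp140, Nnp-1, pit and bys, chosen by name. A gene was measured through a probe set (a group of short probes summarised as 1 value) that the array annotation assigns to 1 gene symbol. By this rule 7 of the 8 genes were measured, out of 11982 genes on the array, and nop5 was not analysed here. Nop60B has a pair of such probe sets. The one with the higher mean stands for the gene, and the other is given beside it.

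The study asked how loss of E2F function changes the response of the eye disc to DNA damage. Eye imaginal discs came from larvae in the 3rd instar raised at 25 °C. RNA of each sample (50 ng) was labelled and hybridised to an Affymetrix array, the Drosophila Genome 2.0. There were 6 groups and 17 arrays. Wild type discs were untreated (3 arrays) or taken 4 h after 40 Gy of gamma rays (2 arrays, numbered 1 and 3). Discs mutant for dDP, the partner protein that E2F factors need to bind DNA, gave 3 untreated and 3 irradiated arrays under the same dose and time. Discs labelled de2f1, in which the activator gene E2f1 was removed from the posterior of the disc, gave 3 and 3 in the same way. The alleles, the means of posterior deletion, the number of animals per sample and the age of the larvae in hours are not stated in the labels. The posterior deletion leaves the rest of the de2f1 disc outside the labelled change.

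Ribosomes are assembled in the nucleolus from ribosomal RNA, which RNA polymerase I transcribes as a long precursor. Small nucleolar ribonucleoproteins (snoRNPs) guide chemical changes to chosen bases of that precursor, box C/D particles by methylating riboses and box H/ACA particles by making pseudouridine. Other nucleolar factors cut and fold the precursor and load it with proteins, and the demand for this work is high in growing tissues such as imaginal discs.

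In this list Fib encodes fibrillarin, the methyltransferase of box C/D particles, and Nop56 encodes a core protein of the same particles. Nop60B encodes the fly dyskerin, the pseudouridine synthase of box H/ACA particles. Nopp140 encodes a phosphoprotein of nucleoli and Cajal bodies that binds snoRNPs. Nnp-1 encodes a protein of the Rrp1 family, which in yeast is needed to process the large subunit RNA. The gene pit (pitchoune) encodes a DEAD-box RNA helicase of the nucleolus, and bys encodes bystin, a factor for maturation of the small subunit. In the Release 6 plus ISO1 MT annotation of RefSeq, the Nop60B gene spans 7 snoRNA genes, Fib spans 1, pit spans 1 gene for a small Cajal body RNA, and Nop56, Nopp140, Nnp-1 and bys span none.

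Several features of the arrays bear on the results. Dp itself read log2 8.06 to 8.94 on the 6 dDP arrays and 10.04 to 10.50 on the other 11. All 12 defining eye disc markers were measured, and none read below 8.01 on any array. The 14 salivary gland markers averaged 5.99 to 6.98 in untreated dDP discs, 7.43 to 11.32 in irradiated dDP discs, 6.67 to 11.08 and 9.29 to 11.36 in untreated and irradiated de2f1 discs, and 9.05 to 10.57 and 10.31 to 10.50 in wild type. The 11 hemocyte markers averaged 7.61 to 8.13 on the dDP arrays and 8.60 to 10.15 elsewhere. The fat body markers, of which 5 of 8 were measured, averaged 6.73 to 11.44 in untreated and 8.18 to 9.91 in irradiated dDP discs, above the 6.16 to 6.21 of untreated and the 6.19 to 7.04 of irradiated wild type. On de2f1 arrays they averaged 5.84 to 10.24 before and 5.78 to 8.36 after irradiation. The highest, 11.44, was untreated dDP array 1. The muscle markers, 6 of 9 measured, averaged 11.68 to 11.87 and 11.81 to 12.11 in untreated and irradiated dDP discs, 11.51 to 11.63 and 11.54 to 11.74 on wild type arrays, and between 11.36 and 11.92 on de2f1 arrays. No marker list average was near the lower quartile of the arrays, which lay at 4.51 to 4.60. The lowest salivary gland and fat body averages were, however, near the median of the arrays, which lay at 5.82 to 5.99. The actin control difference between 3-prime and 5-prime ends, a measure of RNA length, was log2 3.05 and 3.26 on untreated dDP arrays 2 and 3 and 1.69 to 2.28 on the others. Since each sample is a whole disc, fewer cells of a type and less RNA per cell cannot be told apart.

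All values below are deposited log2 values. A difference is the first group minus the second on the log2 scale, with the standard error of a linear model fitted to all 17 arrays (limma). A gene was counted as changed when its Benjamini-Hochberg adjusted p over all 18769 probe sets tested was under 0.05.

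The snoRNP proteins came first. Fib read 11.87, 11.83 and 11.81 in untreated wild type discs and 12.02 and 11.95 in irradiated ones. In de2f1 discs Fib read 12.02, 11.99 and 11.93 untreated and 11.98, 11.98 and 11.96 irradiated. In dDP discs it read 11.96, 12.09 and 12.08 untreated and 12.15, 12.00 and 11.92 irradiated. Untreated wild type was the lowest group for Fib and overlapped no other group, while the remaining 5 groups overlapped their neighbours in the order of means.

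Nop56 read 12.37, 12.31 and 12.34 in untreated and 12.55 and 12.60 in irradiated wild type discs. Its de2f1 values were 12.43, 12.45 and 12.40 untreated and 12.46, 12.47 and 12.48 irradiated. Its dDP values were 12.38, 12.45 and 12.47 untreated and 12.48, 12.48 and 12.41 irradiated. For this core box C/D gene irradiated wild type arrays were the highest and untreated wild type arrays the lowest, with mutant groups between them. The mutant groups overlapped one another in the order of means, but neither wild type group overlapped its neighbour.

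Nop60B read 12.74, 12.65 and 12.71 in untreated and 12.89 and 12.87 in irradiated wild type discs. In de2f1 discs it read 12.75, 12.78 and 12.74 untreated and 12.77, 12.76 and 12.76 irradiated, and in dDP discs 12.69, 12.79 and 12.77 untreated and 12.79, 12.71 and 12.64 irradiated. The irradiated wild type arrays stood above every other array, and the other 5 groups overlapped one another in the order of means. The other probe set of the dyskerin gene gave a different order, in which irradiated dDP discs had the highest mean (11.27, 10.95 and 11.09) and untreated wild type discs the lowest (10.77, 10.61 and 10.61). It read 10.97 and 11.06 in irradiated wild type, 10.74, 10.80 and 10.87 in untreated de2f1, 10.91, 10.92 and 10.97 in irradiated de2f1, and 10.80, 11.08 and 11.00 in untreated dDP discs.

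Nopp140 read 12.25, 12.20 and 12.16 in untreated and 12.37 and 12.41 in irradiated wild type discs. In de2f1 discs it read 12.12, 12.02 and 12.19 untreated and 12.18, 12.09 and 12.27 irradiated. In dDP discs it read 11.96, 11.73 and 11.68 untreated and 12.15, 12.04 and 12.10 irradiated. The 3 untreated dDP arrays lay below all others for this snoRNP-binding protein, and irradiated wild type arrays lay above all others. Of the untreated dDP arrays, numbers 2 and 3, which carry the larger actin difference, were the lowest.

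Nnp-1 read 11.85, 11.69 and 11.69 in untreated and 11.90 and 11.88 in irradiated wild type discs. In de2f1 discs it read 11.67, 11.63 and 11.78 untreated and 11.83, 11.81 and 11.88 irradiated, and in dDP discs 11.45, 11.53 and 11.49 untreated and 11.66, 11.56 and 11.60 irradiated. The order of means ran from untreated dDP through irradiated dDP, untreated de2f1, untreated wild type and irradiated de2f1 to irradiated wild type. Only the first and the last step in that order were free of overlap.

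The helicase gene pit read 11.05, 10.93 and 11.01 in untreated and 11.24 and 11.12 in irradiated wild type discs. Its de2f1 values were 10.94, 10.88 and 10.92 untreated and 10.96, 10.99 and 10.94 irradiated. Its dDP values were 10.69, 10.68 and 10.67 untreated and 10.93, 10.82 and 10.73 irradiated. Untreated dDP discs were the lowest and irradiated wild type discs the highest, each without overlap, and the 4 groups between them overlapped in sequence.

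The bystin gene bys read 10.22, 10.22 and 10.17 in untreated and 10.47 and 10.48 in irradiated wild type discs. Its de2f1 values were 10.13, 10.15 and 10.08 untreated and 10.13, 10.23 and 10.17 irradiated. Its dDP values were 9.93, 10.03 and 9.92 untreated and 10.13, 10.15 and 10.13 irradiated. As for pit, the extremes were untreated dDP and irradiated wild type, and both were free of overlap with the rest.

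**Figure D1:**
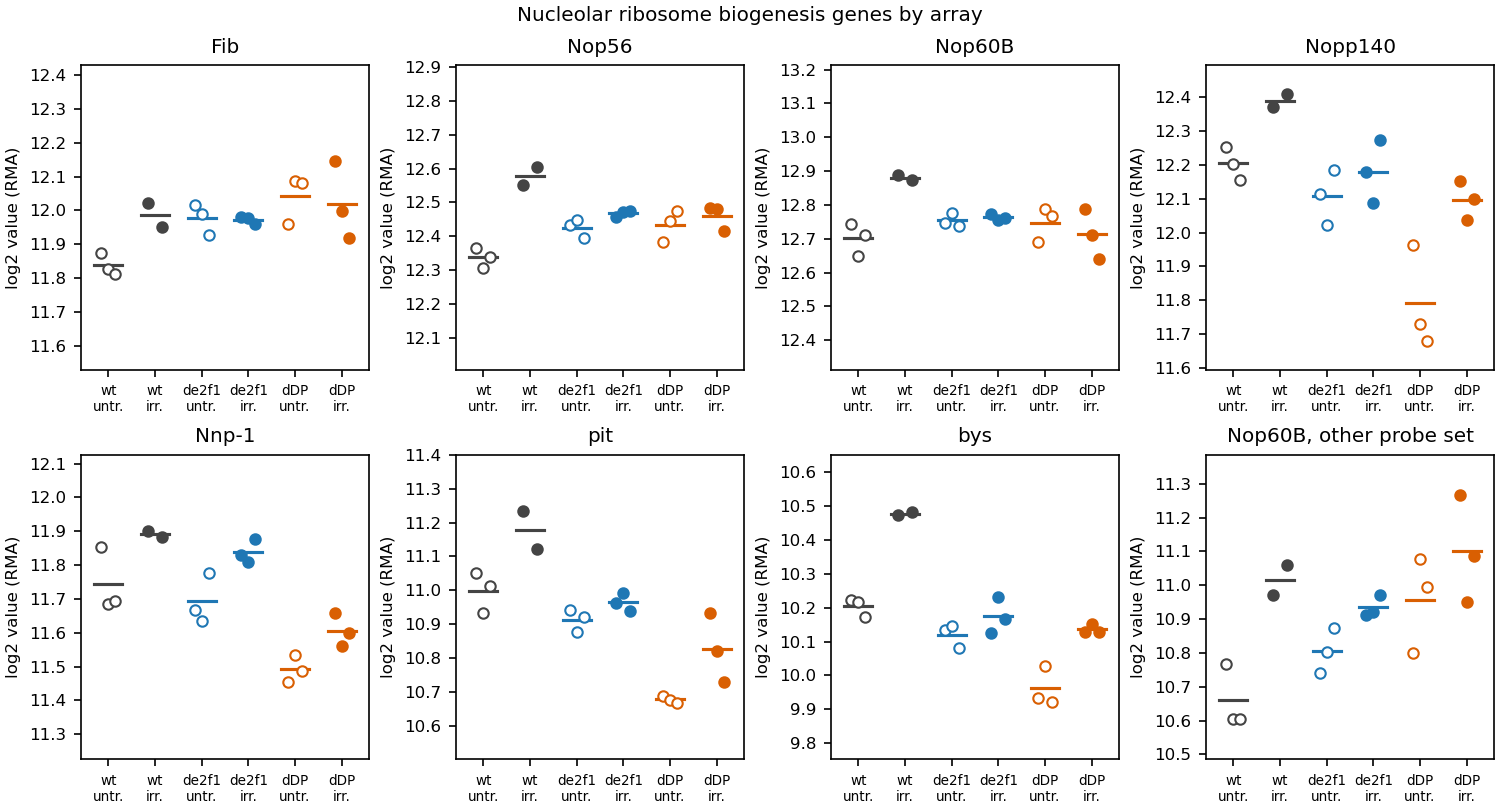
Deposited log2 value (y axis, same span in each panel) of the 7 measured genes and the other Nop60B probe set on each of the 17 arrays, by group (x axis; wt, wild type; untr., untreated, open points; irr., irradiated, filled points); lines are group means. Untreated dDP arrays are the lowest for Nopp140, Nnp-1, pit and bys but not for Fib, Nop56 or Nop60B, and irradiated wild type arrays are the highest for Nop56, Nop60B, Nopp140, Nnp-1, pit and bys.

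Loss of dDP in untreated discs went with falls in 4 of the 7 genes. Nopp140, Nnp-1, pit and bys fell and Fib rose, while Nop56 and Nop60B did not pass the test. Of the 7 genes 4 fell, where 15.9% of all probe sets fell, and 1 rose, where 12.1% of all probe sets rose. The rise of 1 gene was thus close to the share over the array. The median difference of the 7 was -0.24, against -0.01 over all probe sets tested. Nopp140 fell by 24.9% (log2 difference -0.41 ± 0.07, adjusted p = 0.000676) and pit changed by -0.32 ± 0.05 (adjusted p = 0.000465). Nnp-1 fell by 16.0% (-0.25 ± 0.06, adjusted p = 0.00308) and bys fell by 15.4% (-0.24 ± 0.04, adjusted p = 0.000779), with n = 3 against 3 throughout. In each of these 4 genes every dDP array lay below every wild type array, a separation that was not counted over all probe sets.

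Fib, the methyltransferase, moved the other way and was 15.2% higher in untreated dDP discs (0.20 ± 0.06, adjusted p = 0.0164), again without overlap of the arrays. Its box C/D partner Nop56 differed by 0.10 ± 0.04 (adjusted p = 0.106). Nop60B differed by 0.05 ± 0.05 (adjusted p = 0.535, 95% interval -0.05 to 0.15), whereas its other probe set was higher in dDP discs (0.30 ± 0.08, adjusted p = 0.0164).

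The salivary gland and hemocyte averages lay lower in untreated dDP than in wild type discs, and the fat body and muscle averages higher, as did the actin difference on arrays 2 and 3. Of the markers measured 8 of 11 hemocyte genes fell and 1 rose, 0 of 5 fat body genes passed (limma, 1 at an unadjusted p under 0.05), and 1 of 6 muscle genes rose. Of the salivary gland markers 7 of 14 fell, and of the eye disc markers 3 of 12 fell and 1 rose. Over all probe sets 15.9% fell and 12.1% rose. With the salivary marker average as a covariate Nopp140, pit, Nnp-1 and bys stayed changed, with differences of -0.48, -0.40, -0.32 and -0.25 (adjusted p of 0.00094 to 0.0099), but Fib did not (0.11, adjusted p = 0.324). With the actin difference as a covariate the 4 falls were -0.30, -0.32, -0.29 and -0.25 in the same order (adjusted p of 0.00342 to 0.01), and the Fib difference was 0.14 (adjusted p = 0.144). Without untreated dDP arrays 2 and 3 the group is array 1 alone, the array with the highest fat body average, and it is assumed to vary like the other groups. Its differences from wild type were -0.24 for Nopp140 (adjusted p = 0.059), 0.12 for Fib (adjusted p = 0.33), and -0.31, -0.29 and -0.27 for pit, Nnp-1 and bys. The Fib call was also lost without untreated wild type array 2 or 3, or dDP array 2 or 3 singly (adjusted p of 0.0504 to 0.0634). Nop56 passed without untreated dDP array 1 (0.12, adjusted p = 0.0417). The part of hemocyte, fat body and muscle RNA in these differences was not tested.

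**Figure D2:**
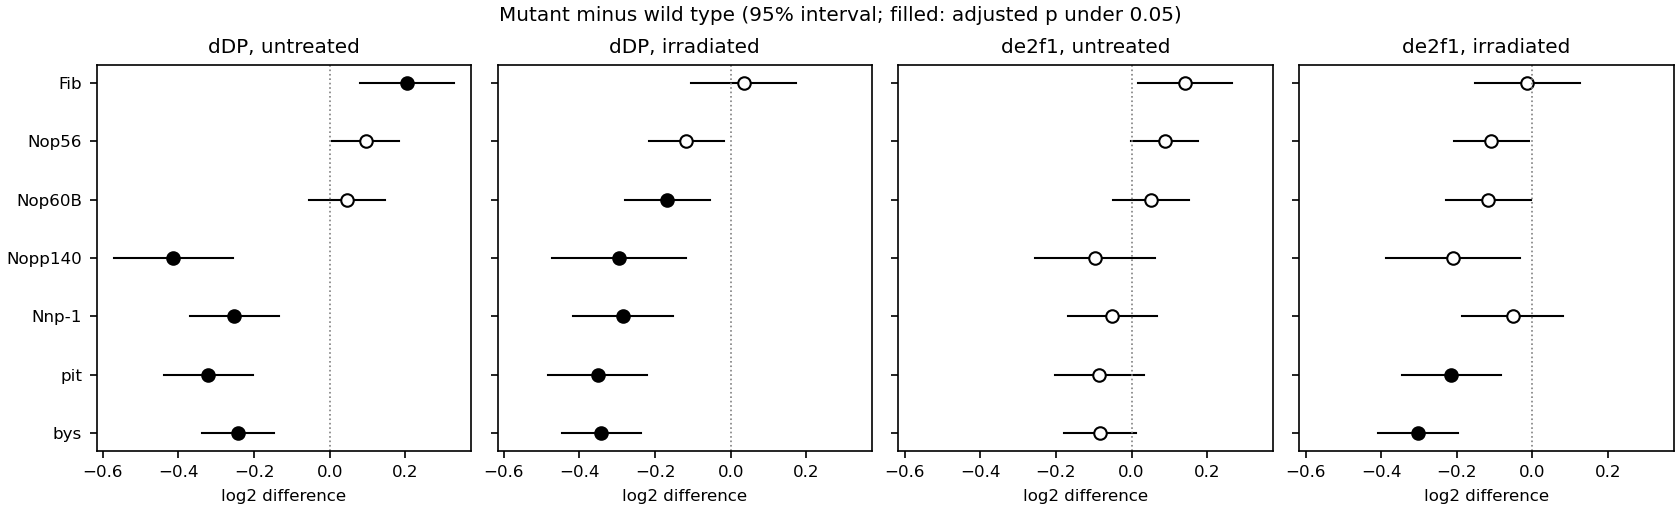
Log2 difference (x axis) of each mutant from wild type for the 7 measured genes (y axis) in untreated and irradiated discs; points are estimates over 3 against 3 arrays (untreated) or 3 against 2 (irradiated), lines 95% intervals of the limma fit, filled points adjusted p under 0.05. Nopp140, Nnp-1, pit and bys lie below 0 in dDP discs under both conditions, with untreated values of -0.41, -0.25, -0.32 and -0.24.

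Irradiation of wild type discs raised bys and Nop56. The bystin gene was 20.9% higher (0.27 ± 0.05, adjusted p = 0.00383) and Nop56 18.1% higher (0.24 ± 0.05, adjusted p = 0.00644; n = 2 against 3 for each). So 2 of 7 genes rose, where 2.59% of all probe sets rose. The other 5 genes were 0.15 to 0.19 higher, with adjusted p of 0.0809 to 0.317, and the other Nop60B probe set rose (0.36 ± 0.09, adjusted p = 0.0499). All 7 had an unadjusted p under 0.05, and in all 7 both irradiated arrays lay above every untreated array. The 7 genes share these arrays, and neither trait was counted over all probe sets. The median was 0.18, against -0.0028 over all probe sets.

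These wild type calls rest on a pair of irradiated arrays. Without irradiated array 3 both were lost, at differences of 0.27 for bys (adjusted p = 0.0555) and 0.21 for Nop56 (adjusted p = 0.115). They were also lost when the 5 wild type arrays were fitted alone (adjusted p = 0.0665 and 0.108). Nop60B passed with a trended prior, array weights, the actin covariate or without the dimmest probe sets (adjusted p of 0.0214 to 0.0396), and also without untreated dDP array 1 (0.0489), which enters this comparison only through the shared estimate of spread.

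In de2f1 discs no measured gene of the list changed after irradiation (limma, 0 of 7, with 1 at an unadjusted p under 0.05), where 2.3% of all probe sets changed in either direction. Nnp-1 gave the smallest p there, with a difference of 0.15 ± 0.06 and adjusted p = 0.291. For Fib, Nop60B and Nop56 the differences were -0.01, 0.01 and 0.04, with 95% intervals of -0.13 to 0.12, -0.09 to 0.11 and -0.05 to 0.13.

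In dDP discs Nopp140 and bys rose after irradiation. Nopp140 was 23.5% higher than in untreated dDP discs (0.30 ± 0.07, adjusted p = 0.0198) and bys 12.9% higher (0.17 ± 0.04, adjusted p = 0.0238). These are 2 of 7, where 4.45% of all probe sets rose. For both genes all 3 irradiated arrays lay above all 3 untreated ones, a separation that was not counted over all probe sets. Nnp-1 (0.11) and pit (0.15) did not pass (adjusted p = 0.228 and 0.11), and Fib, Nop60B and Nop56 differed by -0.02, -0.04 and 0.03 (adjusted p of 0.705 to 0.869).

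Both dDP irradiation calls were lost under several alternatives. Salivary markers averaged 7.43 on irradiated dDP array 1 and up to 11.32 on the others, and with their average as a covariate Nopp140 differed by 0.37 (adjusted p = 0.0715) and bys by 0.18 (adjusted p = 0.157). With the actin difference as a covariate the values were 0.19 (adjusted p = 0.209) and 0.18 (adjusted p = 0.0683). Against untreated dDP array 1 alone, with its spread taken from the other groups, they were 0.13 (adjusted p = 0.538) and 0.20 (adjusted p = 0.0667). Leaving out untreated dDP array 3, irradiated dDP array 1 or irradiated dDP array 3 ended both calls (adjusted p of 0.0525 to 0.0993). Leaving out untreated array 2 ended that of Nopp140 (0.0859), and irradiated array 2 that of bys (0.0743).

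**Figure D3:**
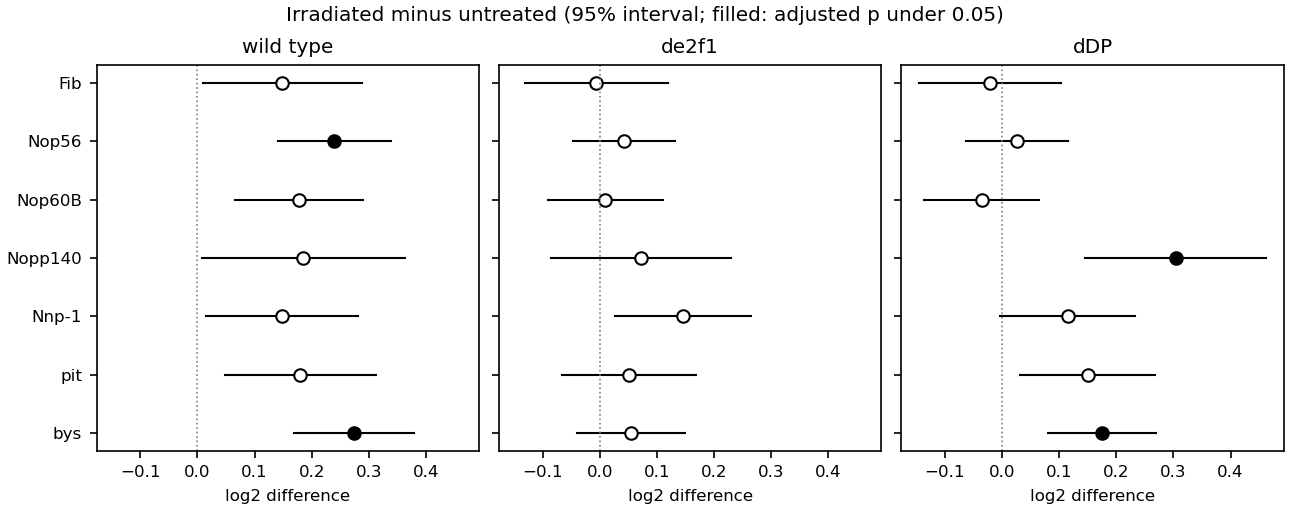
Log2 difference of irradiated from untreated discs (x axis) for the 7 measured genes (y axis) in wild type (2 against 3 arrays), de2f1 and dDP discs (3 against 3 each); points are estimates, lines 95% intervals of the limma fit, filled points adjusted p under 0.05. Nop56 (0.24) and bys (0.27) are filled in wild type, none in de2f1, and Nopp140 (0.30) and bys (0.17) in dDP discs.

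Whether the irradiation response differed between genotypes was tested directly, and no measured gene of the list passed. Between dDP and wild type 0 of 7 passed (limma, 2 at an unadjusted p under 0.05), where 0.202% of all probe sets passed in either direction. Between de2f1 and wild type 0 of 7 passed (3 at an unadjusted p under 0.05; 0.0533% of all probe sets). Between dDP and de2f1 it was 0 of 7 (1 at an unadjusted p under 0.05; 0.117% of all probe sets).

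The intervals of these differences are wide relative to the changes themselves. The Nop56 response was 0.21 smaller in dDP than in wild type discs (difference -0.21, 95% interval -0.35 to -0.08, adjusted p = 0.276), and the Nop60B response differed by -0.21 (95% interval -0.36 to -0.06, adjusted p = 0.364). In de2f1 discs the bys response differed from wild type by -0.22 (95% interval -0.36 to -0.08, adjusted p = 0.925). The Nopp140 response was 0.23 larger in dDP than in de2f1 discs (95% interval 0.01 to 0.46, adjusted p = 0.459). Without untreated dDP array 1 the Nop56 difference between dDP and wild type passed (-0.24, adjusted p = 0.0402), as did that of Nopp140 between dDP and de2f1 discs (0.32, adjusted p = 0.0465).

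Among irradiated discs the dDP mutant was again lower than wild type for most of the list. Of the 7 genes 5 fell, where 13.0% of all probe sets fell. The helicase gene pit fell by 21.6% (-0.35 ± 0.06, adjusted p = 0.000724) and bys fell by 21.1% (-0.34 ± 0.05, adjusted p = 0.000145). Nopp140 fell by 18.5% (-0.29 ± 0.08, adjusted p = 0.0181) and Nnp-1 fell by 17.9% (-0.29 ± 0.06, adjusted p = 0.00358). Nop60B, the fifth, changed by -0.17 ± 0.05 (adjusted p = 0.0321). Nop56 (-0.12, adjusted p = 0.0861) and Fib (0.03, adjusted p = 0.775) did not pass. The other Nop60B probe set did not follow, with a difference of 0.09 ± 0.09 (adjusted p = 0.59). Since the untreated and the irradiated comparison with dDP use separate arrays, the falls of Nopp140, Nnp-1, pit and bys were each measured in 2 sets of discs, although these genes were chosen with such results known. Without irradiated wild type array 1 or 3 or irradiated dDP array 2 the calls of Nopp140 (adjusted p of 0.0593 to 0.112) and Nop60B (0.0658 to 0.151) were lost, and the Nop60B call was also lost without irradiated dDP array 3 (0.116). Hemocyte markers averaged 7.64 to 7.82 on the irradiated dDP and 8.60 to 8.77 on the irradiated wild type arrays. Fat body markers averaged 8.18 to 9.91 and 6.19 to 7.04 on the same arrays, and muscle markers 11.81 to 12.11 and 11.54 to 11.74. The part of these cells in the falls was not tested.

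Removal of de2f1 from the posterior changed no measured gene of the list in untreated discs (limma, 0 of 7, with 1 at an unadjusted p under 0.05), where 8.99% of all probe sets changed in either direction. The 1 was Fib (0.14 ± 0.06, adjusted p = 0.178). Nopp140, pit and bys differed by -0.10, -0.08 and -0.08 (adjusted p of 0.319 to 0.535), with 95% intervals of -0.25 to 0.06, -0.20 to 0.03 and -0.18 to 0.01.

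In irradiated discs bys and pit fell in de2f1 relative to wild type, 2 of 7 where 4.94% of all probe sets fell. For bys the difference was -0.30 ± 0.05 (adjusted p = 0.0012) and for pit -0.21 ± 0.06 (adjusted p = 0.0441). All 7 differences were below 0, with a median of -0.12 against -0.0011 over all probe sets, and each was set against the same 2 wild type arrays. The bys fall passed under every alternative run (adjusted p of 0.000215 to 0.0301). The pit fall was lost without irradiated wild type array 1 (-0.16, adjusted p = 0.325) or array 3 (-0.27, adjusted p = 0.0745), without any 1 of the 6 de2f1 arrays (adjusted p of 0.0534 to 0.129), and without untreated wild type array 1 or 3, untreated dDP array 2 or 3 or irradiated dDP array 2 (0.0502 to 0.0607).

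Set directly against de2f1, untreated dDP discs had lower Nopp140 (-0.32 ± 0.07, adjusted p = 0.00617), pit (-0.24 ± 0.05, adjusted p = 0.00607), Nnp-1 (-0.20 ± 0.06, adjusted p = 0.0163) and bys (-0.16 ± 0.04, adjusted p = 0.0178). These are 4 of 7, where 11.9% of all probe sets fell, and they share the dDP arrays with the comparison against wild type. Fib, Nop60B and Nop56 differed between the mutants by 0.06, -0.01 and 0.01 (adjusted p of 0.508 to 0.951). With untreated dDP array 1 as the only array of its group, its spread was taken from the other groups. The differences were then -0.15 for Nopp140, -0.23 for pit, -0.24 for Nnp-1 and -0.19 for bys. The calls of Nopp140, pit and Nnp-1 were lost. Beside the actin and salivary measures that move with the untreated dDP group, Nopp140 was lost with the actin covariate (-0.21, adjusted p = 0.0575) and bys with the salivary covariate (-0.16, adjusted p = 0.0542). Nnp-1 was lost after quantile normalization (-0.15, adjusted p = 0.0672). Single arrays also ended calls: untreated de2f1 array 3 that of Nnp-1 (0.0779), and de2f1 array 1 or 2 or dDP array 3 that of bys (0.0624 to 0.0695). In irradiated discs only Nnp-1 was lower in dDP than in de2f1 (-0.23 ± 0.06, adjusted p = 0.00643). This was 1 of 7, no more than the 14.3% of all probe sets that fell. The median of the 7 was -0.0512, against -0.0499 over all probe sets. In the same comparison pit differed by -0.14 (adjusted p = 0.0823) and passed without irradiated dDP array 1 (-0.19, adjusted p = 0.0222).

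Other genes of ribosome building, taken from lists chosen by name, gave a background for these values. Of 56 such genes measured, 11 rose and 0 fell after irradiation in wild type discs, where 2.59% of all probe sets rose. Their median was 0.18, with 32 higher and 0 lower at an unadjusted p under 0.05 (limma). The 11 rises included 3 of 12 small subunit factors, 6 of 19 large subunit factors and 2 of 10 exosome and other nucleolar genes. eIF6, which keeps the large subunit from joining the small one too early, rose the most among the 56, from 10.99 to 11.14 on untreated arrays to 12.36 and 12.44 on irradiated ones (1.34 ± 0.12, adjusted p = 9.5e-06). eIF6 also rose in de2f1 (0.98 ± 0.11, adjusted p = 0.000114) and in dDP discs (1.12 ± 0.11, adjusted p = 2.46e-05). The large subunit factor gene Surf6 rose by 0.39 ± 0.05 in wild type and 0.24 ± 0.05 in dDP discs (adjusted p = 0.000313 and 0.00452).

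Outside wild type, 1 of the 56 rose in irradiated de2f1 discs, eIF6 itself. Over the array 257 of 18769 probe sets rose there and 174 fell, together 2.3%. In irradiated dDP discs 11 of the 56 rose, where 4.45% of all probe sets rose. In both mutants 0 fell, and the medians were 0.04 and 0.07 (limma, 3 and 4 lower at an unadjusted p under 0.05). None of the 7 measured genes of RNA polymerase I and its factors passed in wild type (limma, 7 higher at an unadjusted p under 0.05; median 0.22, adjusted p of 0.0699 to 0.209). In dDP discs the subunit gene Polr1E (0.51 ± 0.09, adjusted p = 0.00199) and the initiation factor gene Tif-IA (0.19 ± 0.05, adjusted p = 0.0193) rose.

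**Figure D4:**
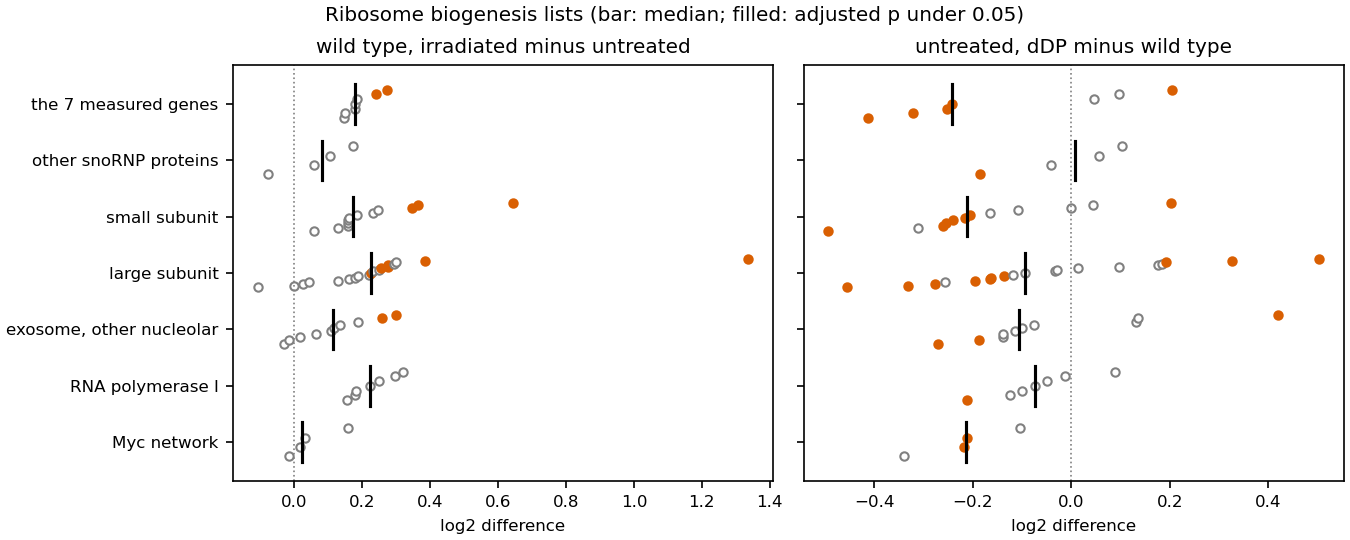
Log2 difference (x axis) of single genes (points) in each list of ribosome biogenesis genes (y axis), after irradiation in wild type discs (left) and between untreated dDP and wild type discs (right); filled points have adjusted p under 0.05 and bars are list medians. On the left the point at 1.34 is eIF6; on the right the small subunit list lies mostly below 0 (6 of 12 fell, 1 rose).

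In untreated dDP discs 19 of the 56 fell and 5 rose relative to wild type, with a median of -0.11, where 15.9% of all probe sets fell and 12.1% rose. The rises were thus no more frequent than over the array. Small subunit factors fell in 6 of 12 cases and rose in 1. The largest of these falls was that of the fly Nop14 gene (CG5824), which read 9.35 to 9.44 in wild type and 8.85 to 8.98 in dDP discs (-0.49 ± 0.05, adjusted p = 7.62e-06). Mat89Ba, another small subunit factor gene, fell by 0.26 ± 0.06 (adjusted p = 0.00275).

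Large subunit factors moved both ways in untreated dDP discs, with 7 falling and 3 rising among 19. CG11583, the fly Brix gene, fell by 0.46 ± 0.05 (adjusted p = 5.52e-06). Non1, a nucleolar GTPase gene, rose by 0.50 ± 0.06 (adjusted p = 9.9e-06), and CG4364, the fly Pescadillo gene, rose by 0.33 ± 0.05 (adjusted p = 0.000103). Of the 10 exosome and other nucleolar genes 2 fell and 1 rose, with a median of -0.11. Both counts were near the shares over the array, where 15.9% fell and 12.1% rose. The rise was that of Rrp4, a subunit of the RNA exosome (0.42 ± 0.06, adjusted p = 7.08e-05). The falls were those of Rrp6 (-0.27 ± 0.07, adjusted p = 0.0109) and pths (-0.19 ± 0.05, adjusted p = 0.0142).

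Of the other snoRNP proteins 1 of 4 measured fell in untreated dDP discs, the box H/ACA gene NHP2 (-0.18 ± 0.05, adjusted p = 0.0166). Tif-IA fell by 0.21 ± 0.05 (adjusted p = 0.00322), the 1 of 7 in the polymerase list. Of the network around Myc, which in flies promotes ribosome building, Max (-0.22 ± 0.05, adjusted p = 0.00505) and pont (-0.21 ± 0.05, adjusted p = 0.00316) fell among 4 measured. Myc itself was not analysed here.

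In irradiated discs 29 of the 56 fell and 4 rose in dDP relative to wild type (median -0.19). Over the array 13.0% of all probe sets fell in that comparison, and 1908 of 18769 rose. In de2f1 12 of the 56 fell and 0 rose (limma, 1 higher at an unadjusted p under 0.05; median -0.14). There 4.94% of all probe sets fell, and 691 of 18769 rose. The Nop14 gene was again among the lowest, at -0.59 ± 0.06 in dDP and -0.41 ± 0.06 in de2f1 discs (adjusted p = 5.15e-06 and 0.000474). In untreated de2f1 discs 2 of the 56 fell and 1 rose, a share below the 8.99% of all probe sets that changed. The falls were those of the Nop14 gene (-0.26 ± 0.05, adjusted p = 0.00518) and Max (-0.20 ± 0.05, adjusted p = 0.0227). None of the 56 passed for a difference in the irradiation response between genotypes (limma; at an unadjusted p under 0.05, 5 for dDP and 9 for de2f1 against wild type, and 6 for dDP against de2f1).

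The average course of the 7 genes over the arrays, with each gene standardized, was followed closely by a few others. Among 7490 genes compared, the highest Pearson correlations over the 17 arrays were those of CG8545, the fly Nop2 gene (0.936), Mys45A (0.932), CG30349 (0.917), mEFTs (0.906), RpLP0-like (0.901), l(2)34Fd (0.898), Surf6 (0.888), Polr1B (0.887), Noc3 (0.884) and CG11563 (0.883). Of these 10, 5 are on the ribosome biogenesis lists. The 17 points share their groups, so these values describe likeness across groups as much as between arrays of a group.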

How the data were processed

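The authors deposited log2 values, 1 per probe set and array, from RMA (submitters' processing notes). Its version is not stated. Such values place transcripts relative to others on the array, not per cell. The table holds 18952 probe sets, of which 183 controls were left out of the tests. Of the 18769 tested, 13647 carried 1 gene symbol in the platform annotation, 402 several and 4720 none, and genes were named only from the first kind. The pit probe set (suffix s) and those of Nop56 and Nopp140 (suffix a) carry marks that Affymetrix gives to probe sets shared by several transcripts.

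Samples were grouped by their labels. A linear model, giving each group its own mean, covered the 17 arrays in R 4.3.3 by limma 3.58.1 (prior of 2.56 degrees of freedom, prior SD 0.0935), with Benjamini-Hochberg adjustment per contrast. The p-values measure the spread between these samples, and the number of arrays limits the precision. The code was tested on simulated data. Tables were made with pandas 2.3.3 in Python 3.11.15, and figures with matplotlib 3.10.9.

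Named were the 8 listed genes, up to 4 changed genes per further list and contrast with the smallest adjusted p, of which examples were picked after their values were seen, and the 10 genes most alike in course. The members and lists were chosen with earlier results of these data known. Replicate numbers were checked for pairing. Alternatives were a trended prior, array weights, quantile normalization, leaving out the 40% dimmest probe sets, fits to each contrast's arrays only, the replicate block, the salivary or actin covariate, the other Nop60B probe set, and arrays left out singly or, for untreated dDP 2 and 3, together. A search of promoters for binding motifs was not run. Listed genes without a probe set of their own (nop5, hoip, U3-55K, Nmd3, Polr1D and Myc) were not analysed here.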

Additional observations from a re-analysis of the deposited data

How the results depend on the processing

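Of 84 pairs of gene and contrast 21 passed, 7 of these under every alternative that applied to the gene, and 14 were lost under at least 1. There were 27 alternatives, of which the other probe set applied to Nop60B only. The 7 were pit and bys in untreated dDP against wild type, Nnp-1, pit and bys in irradiated dDP against wild type, bys in irradiated de2f1 against wild type, and Nnp-1 in irradiated dDP against de2f1. Another 8 pairs passed only under an alternative. Among pairs that passed, 1 direction turned: Nop60B in irradiated dDP against wild type was 0.0859 with its other probe set. The cause was not tested. Differences near 0 that did not pass also changed sign, such as Fib for irradiation in dDP discs (0.0758 with the salivary covariate).

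Counts of genes that passed moved as follows. With the arrays of a contrast alone, where fewer samples set the spread, 0 passed for irradiation in wild type and 0 in dDP discs, 3 for untreated dDP against wild type, 1 for untreated dDP against de2f1 and 1 for irradiated de2f1 against wild type. Without untreated dDP arrays 2 and 3, which leaves 1 array in that group, the calls lost were partly others. Both irradiation calls in dDP discs were lost again. Against wild type the Nopp140 call was lost (-0.24) in place of that of Nnp-1 (-0.29). Against de2f1 the pit call was lost (-0.23) and that of bys kept (-0.19), while the contrast's arrays alone kept pit and lost bys. For irradiated de2f1 against wild type, which holds no dDP array, the count was again 1. With the salivary covariate 0 passed for irradiation in dDP discs and 2 for irradiated dDP against de2f1, and with the actin covariate 0 for irradiation in dDP discs. Quantile normalization gave 1 for irradiated de2f1 against wild type. Array weights gave 1 (Nop56, adjusted p = 0.0452) for the difference of the irradiation response between dDP and wild type.

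Leaving out single arrays gave 0 to 3 for irradiation in wild type, 0 to 2 in dDP and 0 in de2f1 discs. For untreated discs it gave 4 to 6 (dDP against wild type), 3 to 4 (dDP against de2f1) and 0 (de2f1 against wild type). For irradiated discs it gave 3 to 5 (dDP against wild type), 1 to 2 (de2f1 against wild type) and 1 to 2 (dDP against de2f1). For the differences of response it gave 0 to 1 (dDP against wild type), 0 to 1 (dDP against de2f1) and 0 (de2f1 against wild type).

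No general pairing of samples by replicate number was seen: of 40 same-numbered pairs, 7 had a correlation of deviations over 0.1, in a range of -0.395 to 0.459. Arrays with different numbers were not compared, so this check cannot exclude pairing. With the replicate block the count was 1 for irradiated de2f1 against wild type, where pit had adjusted p = 0.0523, and the Nop60B call in irradiated dDP against wild type was lost (adjusted p = 0.0561).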
